A study of Mus musculus with 9 samples.

Results

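The 9 genes described here encode components and receptors of the complement system in the mouse retina: C1qa, C1qb, C1qc, C4b, C3, Cfb and the inhibitor gene Serping1, together with the receptor genes C3ar1 and C5ar1. They were chosen by name, with earlier results of these data known, and are 9 of the 22337 genes in the table. RNA was sequenced from retinas of wild-type C57 BL/6J mice (WT), of rd10 mice given normal saline (NS-treated rd10) and of rd10 mice given small extracellular vesicles from human umbilical cord mesenchymal stem cells (MSC-EVs-treated rd10), with 3 libraries per group, all at postnatal day 28. Rd10 mice carry a mutation in Pde6b, a subunit gene of the rod phosphodiesterase, and lose rods and later cones. The rd10 animals were littermates and received 1 µL of MSC-EVs or saline in both eyes at P14 and again at P21. The sample labels call the route intravenous, whereas the paper's abstract describes injection into the vitreous. WT mice came from another supplier and were not injected, so that genotype, source and injection cannot be told apart in any comparison with WT. Nothing in the labels says that the 3 libraries of a group came from separate animals, and the p-values therefore measure the spread between these libraries. Replicates differed by more than counting noise, with a chi-square statistic of 3.99 to 30.2 times its degrees of freedom for pairs within a group.

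Complement is a cascade of plasma and tissue proteins that tags surfaces for uptake and attracts immune cells. In the classical pathway C1q, assembled from the products of C1qa, C1qb and C1qc, binds a target, and its partner proteases cleave C4 and C2 to form an enzyme that cleaves C3. Factor B, encoded by Cfb, builds the C3-cleaving enzyme of the alternative pathway, and the fragments C3a and C5a signal through the receptors C3aR and C5aR1. In the brain and retina microglia are the main known source of C1q, and complement is known for its part in synapse pruning and in the clearance of dying photoreceptors.

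All 9 genes were much higher in NS-treated rd10 retinas than in WT retinas. The log2 fold changes lay between 3.54 (C1qa) and 4.68 (C3), with a median of 4.28. All 9 also stood above WT in MSC-EVs-treated rd10 retinas, by 3.62 to 5.23 on the log2 scale. Between the rd10 groups none of the 9 passed the test, and the fitted log2 differences lay between -0.18 (C5ar1) and 0.54 (C3).

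The libraries differed in depth and in a few other measures. The totals of the estimated counts lay between 19491717 and 62532343, and MSC-EVs replicate 3 was the deepest. The summed level of 4 Y-linked genes was 183 and 189 CPM in MSC-EVs replicates 1 and 2 and at most 0.501 CPM in the other 7 libraries, so the treated group was mixed in this measure and the other groups were not. The summed level of 6 rod markers was 67940 to 73020 CPM in WT, 13420 to 19400 in NS-treated rd10 and 14130 to 19800 in MSC-EVs-treated rd10. In whole retina a change in the number of cells of a type and a change of RNA per cell cannot be told apart.

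The C1q genes come first, as the recognition unit of the classical pathway. C1qb (ENSMUSG00000036905), C1qc (ENSMUSG00000036896) and C1qa (ENSMUSG00000036887) lie side by side on the minus strand of chromosome 4, at chr4:136880129-136886187, chr4:136889804-136893065 and chr4:136895917-136898803 of GRCm38 in GENCODE M21, within 18675 bases. Promoter sequences from RefSeq on GRCm38.p6, reaching from 250 bases before the start to 50 after it, were at hand for 5 of the 9 genes. Those of C1qb and C1qc are shown because these neighbouring genes moved together, and that of C3 for comparison. Capitals mark matches, on either strand, to the PU.1 core GAGGAA or to the NF-κB consensus. PU.1 is a transcription factor of myeloid cells and NF-κB one of inflammatory signalling.
C1qb, chr4:136886151-136886450, minus strand: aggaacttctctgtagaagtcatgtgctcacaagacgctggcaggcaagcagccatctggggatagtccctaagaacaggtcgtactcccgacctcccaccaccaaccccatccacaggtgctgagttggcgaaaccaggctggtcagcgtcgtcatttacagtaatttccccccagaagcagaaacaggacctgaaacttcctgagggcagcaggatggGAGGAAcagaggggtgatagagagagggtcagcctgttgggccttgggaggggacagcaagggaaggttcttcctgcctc
C1qc, chr4:136892865-136893164, minus strand: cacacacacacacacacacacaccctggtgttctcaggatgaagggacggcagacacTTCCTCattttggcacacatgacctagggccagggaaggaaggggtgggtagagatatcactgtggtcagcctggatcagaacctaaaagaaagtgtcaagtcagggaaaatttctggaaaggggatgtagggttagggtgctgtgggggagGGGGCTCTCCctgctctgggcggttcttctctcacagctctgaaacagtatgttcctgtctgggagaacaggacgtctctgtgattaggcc
C3, chr17:57228087-57228386, minus strand: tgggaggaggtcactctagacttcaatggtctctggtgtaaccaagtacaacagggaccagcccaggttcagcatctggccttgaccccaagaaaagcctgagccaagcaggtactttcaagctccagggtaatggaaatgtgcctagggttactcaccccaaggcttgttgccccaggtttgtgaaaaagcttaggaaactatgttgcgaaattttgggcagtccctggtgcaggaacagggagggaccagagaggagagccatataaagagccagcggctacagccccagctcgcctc

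The PU.1 core stood 30 to 25 bases before the RefSeq start of C1qb, and on the opposite strand 193 to 188 bases before the RefSeq start of C1qc. Of all 32851 promoters of this length, 28.3% held it. The NF-κB consensus was found in C1qc alone of the 5 promoters and in 8.46% of all promoters. The interferon response core GAAANNGAA, in 8.56% of all promoters, had a match in C5ar1 alone of the 5, 66 to 58 bases before its start. The STAT motif TTCNNNGAA, in 8.30% of all promoters, matched none of the 5. All these starts are those of RefSeq. The starts of C1qc and C5ar1 lie well inside the GENCODE M21 spans of these genes, so part of the 250 bases before them falls within the gene. A match describes the letters only, and no match says only that the letters are not in this window.

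C1qa was read at 6.33, 6.67 and 4.81 CPM (the count scaled to library size with the TMM factors of edgeR) in WT replicates 1 to 3, at 72.5, 71.7 and 64.4 CPM in NS-treated rd10 and at 71.4, 95.5 and 52.6 CPM in MSC-EVs-treated rd10. Every rd10 library lay above every WT library, and the treated libraries spread around the untreated ones on both sides. In NS-treated rd10 against WT the log2 fold change of C1qa was 3.54 (SE 0.11, adjusted p = 5.36e-10, edgeR quasi-likelihood test with Benjamini-Hochberg adjustment), an 11.6-fold rise with a 95% interval of 9.86 to 13.7. C1qb stood at 5.92, 4.66 and 6.16 CPM in WT, at 73.0, 72.2 and 60.6 CPM in NS-treated rd10 and at 73.7, 89.3 and 50.5 CPM in MSC-EVs-treated rd10. The pattern of libraries was that of C1qa, and the log2 rise in NS-treated rd10 was 3.62 (SE 0.12, edgeR adjusted p = 6.46e-10). C1qc stood at 6.15, 4.48 and 5.31 CPM in WT, at 82.6, 76.6 and 67.4 CPM in NS-treated rd10 and at 79.6, 96.5 and 51.6 CPM in MSC-EVs-treated rd10. Its log2 rise was 3.83 (SE 0.12, edgeR adjusted p = 6.00e-10), and again no rd10 library reached down to WT.

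**Figure D1:**
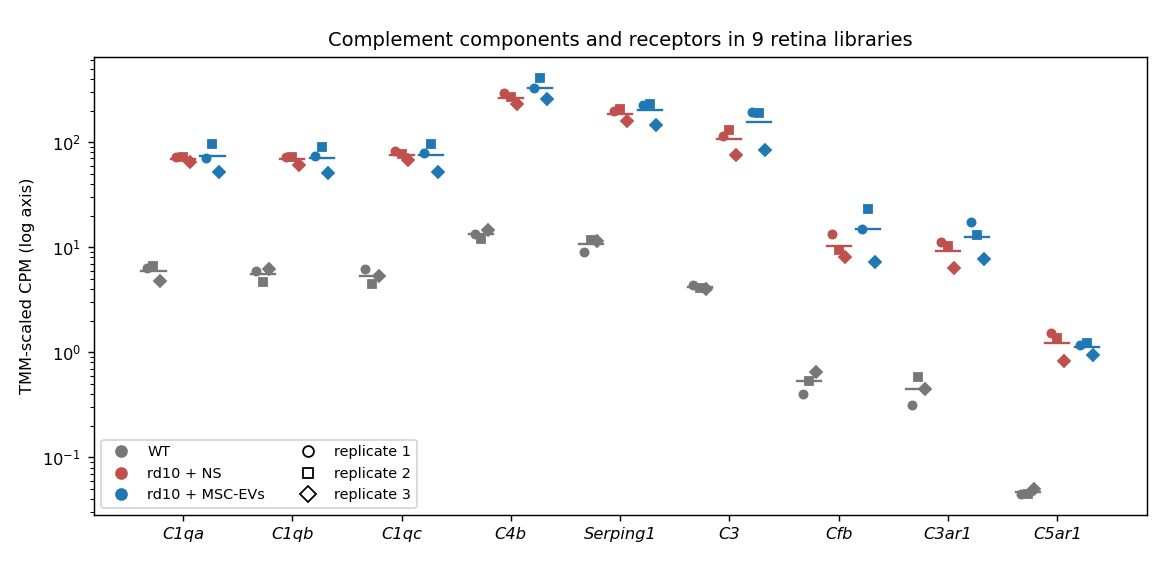
Level of each complement gene in each of the 9 libraries, in TMM-scaled CPM on a log axis. Colours give the group, marker shapes the replicate number and horizontal lines the group mean (n = 3), and in both rd10 groups the diamond, replicate 3, is the lowest of the 3 libraries for all 9 genes.

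The subunits of C1q stood in nearly the same proportion in every rd10 library. Per transcript length, in FPKM as the authors deposited it, the level of C1qb divided by that of C1qa was 0.941 ± 0.0363 in NS-treated rd10, 0.933 ± 0.048 in MSC-EVs-treated rd10 and 0.929 ± 0.281 in WT (SD, n = 3 each). For C1qc over C1qa the ratios were 0.938 ± 0.042, 0.896 ± 0.0605 and 0.792 ± 0.192 in the same order. None of the 6 comparisons between groups separated the libraries, and the two-sided exact permutation p lay between 0.3 and 0.9, unadjusted, in a design of 3 against 3 whose smallest possible p is 0.1. The wide WT spread came with counts of 96 to 149 per gene and library, against 1323 to 3380 in rd10.

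C4b, the mouse gene for complement C4 that C1s cleaves, had the most reads of the 9 genes. It lies at chr17:34728380-34743882 (ENSMUSG00000073418, minus strand), and 34.6% of the 50-base stretches of its transcripts occur in C4a as well, a near-identical neighbour for which no value was analysed here, so that reads of C4a could be counted as C4b. C4b stood at 13.2, 11.95 and 14.7 CPM in WT, at 297.3, 266.5 and 232.1 CPM in NS-treated rd10 and at 325.2, 408.6 and 255.1 CPM in MSC-EVs-treated rd10. WT and rd10 libraries were far apart, while the rd10 groups overlapped. The log2 rise in NS-treated rd10 over WT was 4.32 (SE 0.11, edgeR adjusted p = 1.24e-09), or 19.96-fold with a 95% interval of 16.8 to 23.7.

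Serping1 encodes C1 inhibitor, which inactivates the C1r and C1s proteases and so restrains the same step. At chr2:84765387-84775444 (ENSMUSG00000023224, minus strand), it was read at 9.06, 11.8 and 11.4 CPM in WT, at 196.2, 205.8 and 160.1 CPM in NS-treated rd10 and at 225.9, 230.2 and 146.0 CPM in MSC-EVs-treated rd10. The inhibitor gene thus rose as the initiator genes did, with a log2 fold change of 4.12 (SE 0.13, edgeR adjusted p = 5.85e-09) over WT in NS-treated rd10. Per length it had the highest mean level of the 9 genes in every group, 5.62 ± 0.79 FPKM in WT, 110.7 ± 13.8 in NS-treated rd10 and 117.4 ± 28.2 in MSC-EVs-treated rd10. Its libraries stood clear of those of C1qa, the next gene, in NS-treated rd10 only, and overlapped with them in the other groups.

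C3 is the protein on which all complement pathways meet. The gene lies at chr17:57203970-57228136 (ENSMUSG00000024164, minus strand). C3 stood at 4.397, 4.07 and 4.01 CPM in WT, at 115.3, 130.8 and 74.9 CPM in NS-treated rd10 and at 192.0, 191.7 and 84.3 CPM in MSC-EVs-treated rd10. Treated replicates 1 and 2 lay above all NS-treated libraries, and treated replicate 3 lay below 2 of them. The log2 rise of C3 was 4.68 in NS-treated rd10 over WT (SE 0.28, edgeR adjusted p = 3.53e-05), a 25.6-fold change with a 95% interval of 15.8 to 41.6. This interval overlaps with those of all the other genes except C1qa and C1qb, and differences between the genes in the size of their rise were not tested.

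Cfb, the factor B gene of the alternative pathway, was read at 0.404, 0.537 and 0.651 CPM in WT, which were 9 to 13 counts, at 13.3, 9.51 and 8.01 CPM in NS-treated rd10 and at 14.9, 22.9 and 7.26 CPM in MSC-EVs-treated rd10. The treated libraries enclosed the untreated ones, with the highest and the lowest rd10 value both in the treated group. The log2 rise over WT in NS-treated rd10 was 4.28 (SE 0.27, edgeR adjusted p = 8.23e-08). Cfb lies at chr17:34856374-34862518 (ENSMUSG00000090231, minus strand), and 73.0% of the 50-base stretches of its transcripts are shared with the read-through gene Gm20547, to which 0 counts were assigned in all 9 libraries, so the split between them is uncertain.

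C3ar1, the gene of the C3a receptor, lies at chr6:122847138-122856161 (ENSMUSG00000040552, minus strand) and stood at 0.314, 0.582 and 0.451 CPM in WT. It reached 11.3, 10.2 and 6.32 CPM in NS-treated rd10 and 17.2, 13.03 and 7.68 CPM in MSC-EVs-treated rd10. Treated replicates 1 and 2 were above, and treated replicate 3 was within, the range of the NS-treated libraries. Its log2 rise over WT in NS-treated rd10 was 4.35 (SE 0.30, edgeR adjusted p = 2.18e-07), close in size to that of C3 itself, with 20.5-fold against 25.6-fold.

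C5ar1, the gene of the C5a receptor on myeloid cells, at chr7:16246743-16259540 (ENSMUSG00000049130, minus strand), was the scarcest of the 9. It had 1 count in each WT library, 45, 28 and 18 counts in NS-treated rd10 (1.52, 1.37 and 0.824 CPM) and 28, 29 and 60 counts in MSC-EVs-treated rd10 (1.17, 1.24 and 0.933 CPM). The rd10 groups overlapped and both stood apart from WT. Because WT held 3 counts in all, the size of the rise was also read from the pooled counts per total, without TMM factors. This ratio was 30.8 in NS-treated rd10 with a 95% counting interval of 10.2 to 152. In MSC-EVs-treated rd10 it was 25.2 with an interval of 8.41 to 124 (exact binomial, counting error only). The edgeR fit, with TMM factors, gave a 24.15-fold rise for NS-treated rd10 against WT (95% interval 10.5 to 55.5, edgeR adjusted p = 1.81e-05).

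All 9 genes passed edgeR's test at an adjusted p under 0.05 with a rise in NS-treated rd10 over WT, against a background of 31.2% of the 14644 genes tested. Because the genes were chosen with earlier results of these data known, the shares given here are a background and not an independent test. All 9 passed with a rise of at least 1 on the log2 scale, as did 9.16% of the genes tested. In all 9 the NS-treated libraries lay wholly above the WT libraries, as in 33.7% of the genes tested. The median log2 fold change was 4.28 over the 9 genes and 0.005 over all genes tested. In MSC-EVs-treated rd10 against WT, a comparison with the same WT libraries, all 9 again passed, against 28.3% of 14623 genes called higher, 9.0% called higher by at least 1 on the log2 scale and 31.9% with separate libraries. The log2 fold changes of that comparison ran from 3.62 for C1qa (SE 0.28) to 5.23 for C3 (SE 0.46), with the largest edgeR adjusted p, 0.000849, for Cfb.

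**Figure D2:**
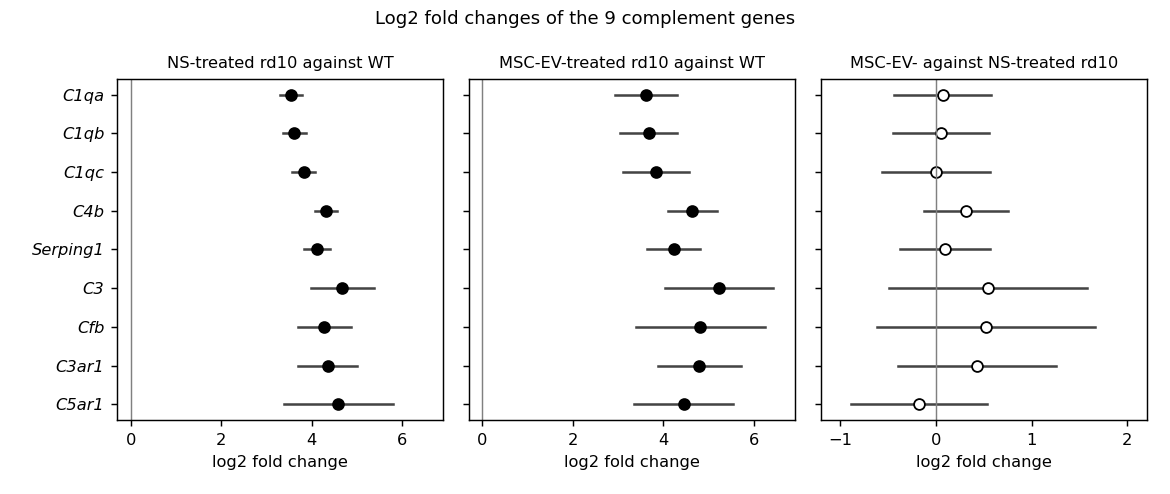
Log2 fold change of each gene (points) with its 95% interval from the edgeR fit (lines) in NS-treated rd10 against WT, MSC-EVs-treated rd10 against WT and MSC-EVs- against NS-treated rd10, filled where the adjusted p is under 0.05. The last panel covers a narrower range of log2 fold changes, and there all 9 intervals include 0. For C5ar1 the values against WT rest on 1 count per WT library.

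Per transcript length the order of the mean levels was the same in WT and in NS-treated rd10: Serping1, C1qa, C1qb, C1qc, C4b, C3, Cfb, C3ar1 and C5ar1. In NS-treated rd10 the means fell from 110.7 FPKM for Serping1 over 51.7 for C4b and 36.0 for C3 to 4.23 for Cfb, 2.25 for C3ar1 and 0.58 for C5ar1. C1qa, C1qb and C1qc, at 69.8, 65.8 and 65.6 FPKM, did not differ beyond their spread, and all other neighbours in that order had separate libraries. In WT the means ran from 5.62 FPKM for Serping1 to 0.0367 for C5ar1, with Serping1 and the C1q genes overlapping, and C3ar1 with C5ar1. In MSC-EVs-treated rd10 the order was the same, and only the pairs of C4b with C3, C3 with Cfb and C3ar1 with C5ar1 among neighbours had separate libraries.

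Treatment with MSC-EVs was compared with saline in littermates, the comparison that addresses whether the vesicles change this response. None of the 9 genes passed the edgeR test, none had separate libraries and none had an unadjusted p under 0.05. Among the 14765 genes tested, 1.16% passed in either direction and 26.3% had separate libraries. DESeq2 also passed none, with an unadjusted p under 0.05 for 1 gene, C4b (DESeq2 adjusted p = 0.178). The log2 difference was 0.54 for C3 (SE 0.40, edgeR adjusted p = 0.516), 0.52 for Cfb (SE 0.45, edgeR adjusted p = 0.578), 0.43 for C3ar1 (SE 0.34, edgeR adjusted p = 0.535) and 0.32 for C4b (SE 0.18, edgeR adjusted p = 0.382). It was 0.10 for Serping1, 0.07 for C1qa, 0.05 for C1qb, 0.004 for C1qc and -0.18 for C5ar1.

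The 95% intervals of these fold changes say how large a difference could be missed. For the C1q genes they reached from 0.741 to 1.49 (C1qa), 0.732 to 1.47 (C1qb) and 0.679 to 1.48 (C1qc), and for Serping1 from 0.775 to 1.48. C4b had the interval of 0.921 to 1.68. For C3 the interval was 0.711 to 2.98, for Cfb 0.654 to 3.16, for C3ar1 0.76 to 2.39 and for C5ar1 0.542 to 1.45. All 9 intervals hold no change, and those of C3, Cfb and C3ar1 also hold a doubling, so they do not show that the groups were alike.

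Single libraries decided the fitted direction of the small differences. Without MSC-EVs replicate 2 the log2 difference was -0.17 for C1qa, -0.15 for C1qb, -0.21 for C1qc and -0.01 for Serping1. It was also below 0 for C1qb and C1qc without NS replicate 3 (-0.03 and -0.07) and for C1qc without MSC-EVs replicate 1 (-0.03), and it was 0.01 for C5ar1 without NS replicate 1. For C3, C4b, Cfb and C3ar1 the difference stayed above 0 with any 1 of the 6 libraries left out. With the Y-linked level of each library as a covariate the fitted difference was below 0 for all 9 genes, and for C3 it was -0.33. That level is high in MSC-EVs replicates 1 and 2 only, so this difference rests largely on MSC-EVs replicate 3. Replicate 3 was the lowest treated library for 9 of 9 genes, and the covariate therefore does not separate treatment from that 1 library.

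Within the rd10 groups the 9 genes had the same lowest library in CPM. Replicate 3 was the lowest for 9 of 9 genes in NS-treated rd10 and for 9 of 9 in MSC-EVs-treated rd10. The share of all genes with this pattern was not computed. The highest library was split, with 7 and 2 genes for replicates 1 and 2 in NS-treated rd10 and 2 and 7 in MSC-EVs-treated rd10. In FPKM replicate 3 was the highest treated library for C5ar1, at 0.70 against 0.60 and 0.64. In WT the lowest library varied (3, 4 and 2 genes for replicates 1, 2 and 3). The summed level of the 9 genes was 863, 844.7 and 674.5 CPM in NS-treated rd10, 1001, 1149 and 655.9 CPM in MSC-EVs-treated rd10 and 44.8 to 47.5 CPM in WT. The spread, as a coefficient of variation of the CPM, was 23.3% to 52.1% in the treated group for the 8 genes other than C5ar1, and 6.44% to 28.2% for the same genes in the NS-treated group. C5ar1 went the other way, with 14.4% in the treated and 29.6% in the NS-treated group. The treated libraries with the higher summed levels, replicates 1 and 2, were also those with high Y-linked levels. A test of the difference in spread, or of the part of the Y-linked split in it, was not made.

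The summed level of 12 microglia and macrophage markers had, within each rd10 group, the same order of libraries as the summed complement genes. It was 79.7 to 83.0 CPM in WT, 533.6, 471.3 and 427.8 CPM in NS-treated rd10 replicates 1 to 3 and 525.3, 630.9 and 375.6 CPM in MSC-EVs-treated rd10. All 12 markers passed as higher in both rd10 groups against WT. Of all genes tested, 31.2% did so in NS-treated rd10 and 28.3% in MSC-EVs-treated rd10. Between the rd10 groups 0 of the 12 markers passed, beside 1.16% of all genes in either direction. The part of these cells in the complement values was not tested beyond the ratios that follow. Other lists moved with rd10 as well. The summed level of 8 gliosis genes was 312.4 to 322.9 CPM in WT, 1679 to 2180 in NS-treated rd10 and 2112 to 2879 in MSC-EVs-treated rd10. Of the 8, 3 (Cd44, Stat3 and Osmr) passed as higher in the treated group than with saline, beside 135 of all 14765 genes. The summed level of 7 interferon-stimulated genes was 110.6 to 120.7 CPM in WT and 494.5 to 1030 CPM over the 6 rd10 libraries, with 7 of 7 higher in each rd10 group.

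Markers of other cell types were counted in the same way, beside the 31.2% of all genes that passed as higher in NS-treated rd10. Müller glia markers passed as higher for 5 of 6 genes in NS-treated rd10 against WT, endothelial markers for 5 of 6, markers of fibroblasts and meninges for 3 of 5 tested, of retinal pigment epithelium for 2 of 6, which is close to the share of all genes, and of neutrophils and monocytes for 2 of 2 tested. The neutrophil and monocyte markers summed to 0 to 0.134 CPM in WT and to 1.68 to 9.91 CPM in rd10. Of the hepatocyte and plasma genes, Serpina1a and Fgb were at 0 in all 9 libraries, and the only 1 of the 5 that could be tested, Ttr, which is also in the pigment epithelium list, did not pass. All 6 rod markers passed as lower in both rd10 groups. Between the rd10 groups 0 genes of these 7 lists and of the interferon list passed. The part of these cells in the complement values was not tested.

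The complement genes were also set against the microglia markers within each library. The measure was the log2 of the CPM of a gene plus 0.1, minus the mean of the same value over the 12 markers. These markers themselves rose by unequal amounts in NS-treated rd10, from 1.08 (Cx3cr1) to 4.47 (Fcrls) on the log2 scale. Aif1, Ptprc, Adgre1 and Fcrls rose by 3.804, 3.803, 4.21 and 4.47, more than C1qa and C1qb at 3.54 and 3.62, so the rise of the C1q genes lies within the range of the markers. For the mean of C1qa, C1qb and C1qc it was 0.97, 0.97 and 1.00 in WT, 1.76, 1.88 and 1.86 in NS-treated rd10 and 1.75, 1.87 and 1.88 in MSC-EVs-treated rd10. The rd10 groups lay together and above WT, by 0.86 on the log2 scale for NS-treated rd10 (two-sided exact permutation p = 0.1, the smallest that 3 against 3 libraries allow). On log2(FPKM + 1) the same difference was 1.51. The 1 added there understates the rise of markers that are low in WT, such as Aif1 at 0.246 CPM, and so enlarges this difference. In CPM the rd10 groups differed by -0.01 (exact permutation p = 0.8).

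**Figure D3:**
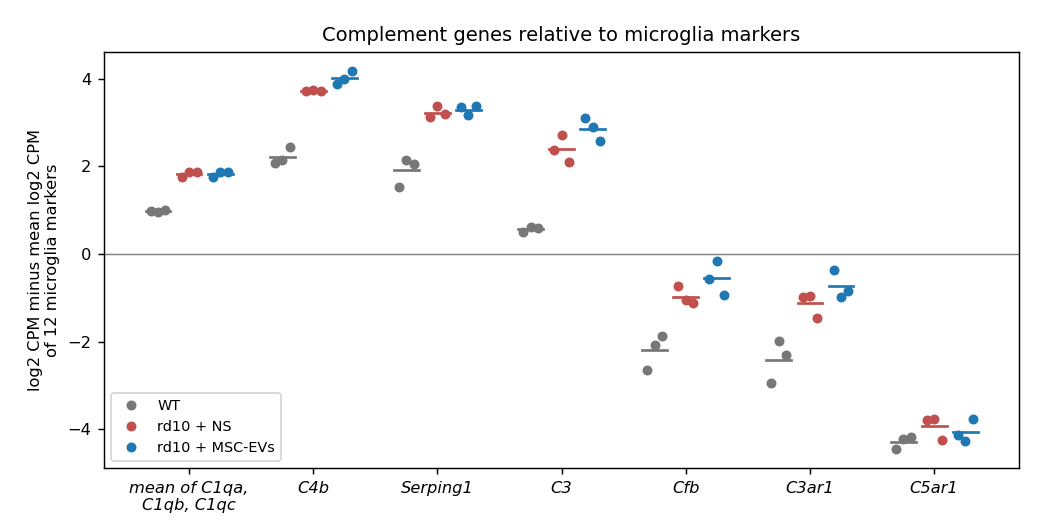
Log2 of CPM plus 0.1 of the complement genes minus the mean of the same over 12 microglia and macrophage markers, 1 point per library with lines at the group means (n = 3). All genes but C5ar1, whose WT levels lie below the 0.1 added, have their rd10 libraries above the WT libraries. C4b alone has its 3 MSC-EVs-treated libraries above the 3 NS-treated ones.

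C3, on this relative scale, stood at 0.50, 0.63 and 0.58 in WT, at 2.36, 2.71 and 2.09 in NS-treated rd10 and at 3.11, 2.90 and 2.58 in MSC-EVs-treated rd10, a difference of 1.82 between NS-treated rd10 and WT. Between the rd10 groups C3 differed by 0.48 with overlapping libraries (exact permutation p = 0.2). The differences of NS-treated rd10 from WT were 1.51 for C4b, 1.32 for Serping1, 1.28 for C3ar1 and 1.23 for Cfb, each with separate libraries and the smallest possible p of 0.1 by the exact permutation test. For C5ar1 the difference was 0.36, with overlapping libraries (exact permutation p = 0.3). Its WT levels, at most 0.0501 CPM, lay below the 0.1 that was added, so its rise is understated on this scale.

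Between the rd10 groups, 1 of the 7 measures had separate libraries on this scale, that of C4b, a share no larger than the 26.3% of all genes with separate libraries in CPM. Relative to the microglia markers C4b stood at 3.73, 3.74 and 3.72 in the NS-treated libraries and at 3.87, 3.99 and 4.18 in the treated ones. The difference was 0.28 with a two-sided exact permutation p of 0.1, unadjusted. In the CPM itself the C4b libraries of the rd10 groups overlapped, as given above. The gliosis genes that passed between the rd10 groups, given above, were also higher in the treated libraries, and their part in the C4b difference was not tested.

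C3 gave different answers by read count and per length. Its mean rose from 107.0 CPM with saline to 156.0 CPM with MSC-EVs, a ratio of 1.46, while its mean FPKM was 36.0 ± 8.97 and 36.2 ± 11.9 (SD, n = 3). The FPKM values were 40.3, 42.1 and 25.7 in NS-treated rd10 and 45.8, 39.7 and 22.9 in MSC-EVs-treated rd10. Dividing the count by the FPKM and the library total gives the transcript length that the authors' values imply, and for C3 this was 2967, 3252 and 3061 bases with saline and 4345, 5001 and 3779 bases with MSC-EVs. All treated libraries lay above all untreated ones (two-sided exact permutation p = 0.1, the smallest possible), and in WT the length was 2081, 2260 and 3542 bases on 80 to 98 counts.

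GENCODE M21 lists 4 transcripts of C3 of 315 to 5136 bases, and an implied length depends on how reads are shared among them. Among 11575 genes with at least 100 counts and an FPKM of at least 1 in all 6 rd10 libraries, the median ratio of implied lengths, treated over untreated, was 1.00. The ratio for C3 was 1.41, reached or passed by 7 of these genes (0.0605%), C3 included, and 6 genes had a ratio as far below 1. C1qa, C1qb and Serping1 had the same implied length in every rd10 library, at 1040, 1088 and 1768 bases.

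**Figure D4:**
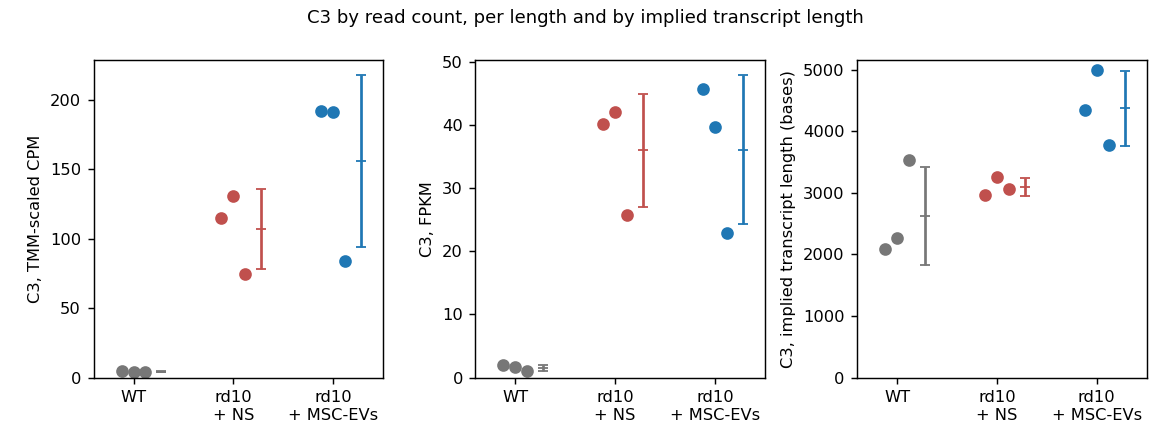
C3 in each library as TMM-scaled CPM, as deposited FPKM and as the transcript length implied by count and FPKM, in bases. Points are libraries and bars the mean and SD (n = 3); the implied length separates the rd10 groups, at 2967 to 3252 against 3779 to 5001 bases, while the FPKM means are 36.0 and 36.2.

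The rest of the complement system was read from a list of 50 further genes, of which 48 were in the table. In NS-treated rd10 against WT 24 of them had enough counts to be tested, 18 passed as higher and 2 as lower, with a median log2 fold change of 1.05. Of all 14644 genes tested, 4562 passed as higher and 4410 as lower. In MSC-EVs-treated rd10 against WT 23 were tested, 15 passed as higher and 5 as lower, beside 4137 higher and 3980 lower of all 14623 genes. Between the rd10 groups 25 were tested and 0 passed by edgeR, with 6 at an unadjusted p under 0.05. Of all 14765 genes tested there, 2980 had an unadjusted p under 0.05 by edgeR, a similar share. DESeq2 passed 2 of the 25, Cd46, a membrane regulator (log2 difference -0.59, DESeq2 adjusted p = 0.00915), and Csmd2 (0.36, DESeq2 adjusted p = 0.0107). Their edgeR adjusted p were 0.0871 and 0.0657.

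Among initiator genes all 6 tested passed as higher in NS-treated rd10. C1ra, a protease of the C1 complex, rose from 1.64 ± 0.373 to 16.5 ± 4.22 CPM (log2 3.34, SE 0.24). C1s1, its partner protease, and C2, which joins C4b in the classical C3-cleaving enzyme, rose by 1.77 and 2.12. These last genes were, like Cfi and Clu below, named after their values were seen. Mannose-binding lectin genes Mbl1 and Mbl2 were at 0 counts in all 9 libraries.

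Among the receptor genes of this further list, which leaves out C3ar1 and C5ar1, the integrin subunits of the complement receptors for C3 fragments rose the furthest. Itgb2, the shared beta subunit, rose from 1.01 to 13.1 CPM in NS-treated rd10 (log2 3.69, SE 0.22) and stood at 13.8 CPM with MSC-EVs. Itgax, the alpha subunit of complement receptor 4, had at most 3 counts in a WT library and at most 142 in NS-treated rd10. Its ratio of pooled counts per total, without TMM factors, was 68.2 with a 95% counting interval of 28.9 to 211.5 (48.7, 20.7 to 151, for MSC-EVs-treated rd10). The edgeR fit gave a 56.4-fold rise in NS-treated rd10. The receptor gene Vsig4 was at 0 in all 9 libraries.

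Regulators moved in both directions. Vtn, whose product vitronectin blocks the terminal complex, fell from 884.7 ± 52.7 to 264.5 ± 32.04 CPM in NS-treated rd10 (log2 -1.74, SE 0.09), and by 1.77 on the log2 scale with MSC-EVs against WT. Cd59a, a membrane inhibitor of the terminal complex, fell by 0.28 in NS-treated rd10, a call that was lost when counts were scaled by library totals alone (-0.11). In MSC-EVs-treated rd10 against WT the next largest falls among genes with separate libraries were Cd46 at -0.77 and Cfp, the properdin gene, at -0.60. Cfi and Clu, which encode factor I and clusterin, rose by 2.08 and 1.61 in NS-treated rd10.

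Genes of the terminal pathway were at or near 0. Hc, the gene of C5, had at most 1 count in any WT or NS-treated library and C9 had 0 in all 9, while C6, C7, C8a and C8b had at most 10 counts in any WT or NS-treated library and at most 20 with MSC-EVs. None of these genes had enough counts to pass the filter. At these counts C7, C8a and C8b had higher values in all NS-treated libraries than in WT, and C6 and C7 had higher values in all treated libraries than in WT. C8g, the only terminal gene tested, had a log2 difference of -0.74 in NS-treated rd10 that did not pass and passed as lower in MSC-EVs-treated rd10 (-1.23), with overlapping libraries.

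**Figure D5:**
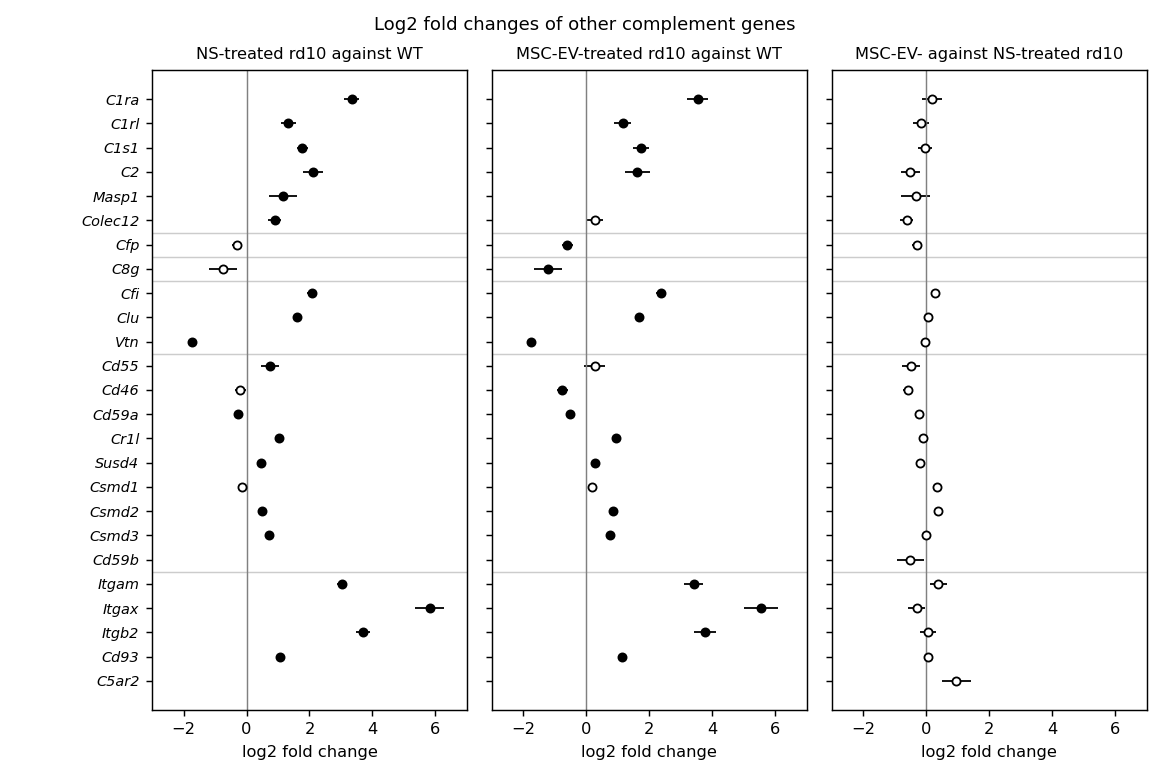
Log2 fold changes with standard errors of other complement genes tested, ordered by role (initiators, alternative pathway, terminal, fluid-phase regulators, membrane regulators and receptors) and filled where the edgeR adjusted p is under 0.05. Filled points in the panels against WT lie mostly above 0, with Vtn the lowest, and the panel of the rd10 groups has none; the Itgax values against WT rest on at most 3 counts per WT library.

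Many genes followed the complement profile over the 9 libraries, which differ mainly between WT and rd10. The genes most like the mean log2 CPM of C1qa, C1qb and C1qc, out of 14899, were H2-Q4, H2-K1, Sparc, Litaf and H2-Q6, with a Pearson r of 0.998 each. The first 2 and the last of these encode class I histocompatibility molecules. For C3 they were Gbp2, Msn, Vwa5a, Clec7a and H2-Q4, with r of 0.996 to 0.997. As many as 1101 genes had an r of at least 0.95 with the C1q profile and 967 with that of C3, so a high r is common in this design of 9 libraries with 3 in WT.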

How the data were processed

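RNA was sequenced from mouse retina, with 3 libraries in each of 3 groups. The authors deposited 1 table. Its expected counts (estimated counts of reads per gene) were left unscaled by the authors, and its FPKM values were divided by the authors by transcript length and depth. The submitters' processing notes name fastp, Bowtie2, HISAT2, StringTie 1.3.1 and RSEM, without roles. The build and annotation that were used are not given in the sources used here. Positions came from GENCODE M21 on GRCm38, matched by gene identifier.

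The planned test was for whole counts, so the expected counts, of which 9.2% to 11.7% per library were not whole, were rounded first. Each pair of groups was fitted on its own with edgeR 4.0.16 under R 4.3.3 by filterByExpr, TMM, glmQLFit and glmQLFTest. Benjamini-Hochberg adjustment covered all genes tested, with a threshold of 0.05. CPM values carry TMM factors computed over all 9 libraries. The comparisons share libraries pairwise. FPKM served for levels between genes and, on a log2 scale with 1 or 0.1 added, for alternatives in limma 3.58.1. DESeq2 1.42.0 was another alternative. The scripts were tested on simulated data with known changes.

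The members and gene lists were chosen with earlier results of these data known. By rule the text names all 9 members, any other complement gene that passed between the rd10 groups, the 3 largest rises and falls of the other complement genes in each comparison with WT among those passing with separate libraries, and the 5 genes most like the C1q and C3 profiles. Other named genes were chosen after their values were seen. C4a was not analysed here, and 1 tested gene of the list is not reported here by name.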

Additional observations from a re-analysis of the deposited data

How the results depend on the processing

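All 9 genes passed against WT in both rd10 groups, and 0 of 9 passed between the rd10 groups, under every alternative in which they were tested. A minimum of 10 counts in every library removed genes with low WT counts. Scaling by library totals alone, an alternative chosen after seeing the data, moved the median of all genes on the log2 scale by 0.18 for NS-treated and by 0.15 for MSC-EVs-treated rd10 against WT.

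Between the rd10 groups 27 of 153 fitted differences changed sign, and the cause was not tested. The Y-linked level as a covariate sets MSC-EVs replicates 1 and 2 apart from all other libraries and leaves largely replicate 3 to compare with saline. With it the log2 differences were -0.39 (C1qa), -0.43 (C1qb), -0.53 (C1qc), -0.33 (C3), -0.035 (C4b), -0.35 (Serping1), -0.48 (Cfb) and -0.25 (C3ar1). C1qc was at -0.031 by upper-quartile scaling, -0.031 with a replicate block, -0.014 by library totals alone, and -0.002 with no filter and with all 9 libraries in one fit. On log2(FPKM + 1) and log2(FPKM + 0.1) C1qc gave -0.049 and -0.051, C3 -0.020 and -0.021, and C5ar1 0.069 and 0.19. Leaving out 1 library gave -0.17 to 0.26 for C1qa, -0.15 to 0.25 for C1qb, -0.21 to 0.22 for C1qc, -0.009 to 0.28 for Serping1 and -0.39 to 0.012 for C5ar1.

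Other complement genes passing between the rd10 groups numbered 2 by DESeq2, 1 with a replicate block, 1 with all 9 libraries in one fit, and 0 to 1 with 1 library left out, where Csmd2 passed without MSC-EVs replicate 2. Against WT in MSC-EVs-treated rd10, 13 also changed by at least 1 on the log2 scale. Relative to the microglia markers on log2(FPKM + 1), C1q differed by 1.51 (NS-treated against WT), -0.10 (MSC-EVs against NS) and 1.42 (MSC-EVs against WT), and C3 by -0.11 and 1.66 in the last 2 comparisons.

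Same-numbered NS and MSC-EVs libraries deviated together with r of 0.09, 0.17 and 0.27, and different-numbered ones had r of -0.189 to 0.003. The labels do not say whether the numbers pair the libraries. The replicate block changed no call of the 9 genes. Between the rd10 groups it lowered the edgeR adjusted p from 0.516 to 0.0606 for C3 and from 0.535 to 0.0937 for C3ar1. That p rose from 0.888 to 0.902 for C1qa and from 0.799 to 0.845 for C5ar1.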
